A study of Danio rerio with 15 samples.

Results

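The 10 zebrafish genes described here belong to bone morphogenetic protein (BMP) signalling and to the group of ventrally acting genes of the blastula. They are the ligand genes bmp2b (ENSDARG00000041430), bmp7a (ENSDARG00000018260) and bmp4 (ENSDARG00000019995), the signal transducer smad5 (ENSDARG00000037238), the inhibitor genes szl (ENSDARG00000099637) and bambia (ENSDARG00000055381), the target gene id3 (ENSDARG00000054823), and the homeobox repressor genes vox (ENSDARG00000099761), vent (ENSDARG00000100483) and ved (ENSDARG00000102389). They were chosen by name, and each symbol matched exactly 1 of the 23726 genes in the expression table. Of the 9 with levels high enough to test, 7 rose in wildtype embryos between 3 and 4.5 hours post fertilization (hpf), where 14.1% of all genes tested rose. The 7 include szl, which reached the level for testing mainly through its 4.5 hpf libraries and whose call was lost without that filter. The mean wildtype levels of bmp2b, bmp7a, vent and ved at 3 hpf were also low, at 0, 0.74, 0.055 and 0.31 FPKM. These genes reached the level for testing mainly through later libraries, so the filter itself favours a rise. Over 4 and 4.5 hpf, 6 of the 9 were lower in the nup133 knockout, where 11.2% of all genes were lower. In the elys knockout 3 of the 9 were lower, where 4.55% of all genes were. The target gene id3 was higher in the nup133 knockout, as were 18.6% of all genes.

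Poly(A) RNA of dechorionated whole embryos was measured in 15 libraries at 3, 4 and 4.5 hpf, in a series on how nuclear pore proteins affect zygotic genome activation, the switch from maternal to embryonic transcripts. The groups were wildtype, a nup133 knockout labelled MZnup133, a nup133 transgenic overexpression line labelled Tgnup133 and an elys knockout labelled Melys. Wildtype had 2 libraries per stage, of which 1 is labelled as the control for Tgnup133 and MZnup133 (the nup133 set) and 1 as the control for Melys (the elys set); every other genotype had 1 library per stage. The alleles, the promoter of the transgene, the strain and the number of embryos or clutches per library are not stated in the labels. The p-values therefore measure only the spread between these libraries. For the genotype effects this spread is how the effects differ between stages, since no knockout or transgenic library was repeated. The nup133 transcript ranged from 9.35 to 13.1 FPKM (a fragment count divided by transcript length and by the number of mapped fragments) in the 6 wildtype libraries, from 16.4 to 18.4 in Tgnup133 and from 0 to 0.431 in MZnup133. The elys transcript, listed as ahctf1, ranged from 18.7 to 28.2 FPKM in wildtype and was 13.5, 25.8 and 24.1 FPKM in Melys at 3, 4 and 4.5 hpf. The Melys level was below both wildtype libraries at 3 and 4 hpf and above both at 4.5 hpf, so the transcript does not check that label.

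BMP ligands are secreted proteins that bind paired type I and type II receptor kinases, which phosphorylate Smad proteins such as Smad5, and these enter the nucleus with a shared partner Smad to regulate target genes. In the zebrafish embryo this signal specifies ventral fates, Bmp2b and Bmp7a act together as a heterodimer, and secreted antagonists such as Chordin limit the signal on the dorsal side. Vox, Vent and Ved repress dorsal organizer genes, and they are among the early genes transcribed by the embryo itself.

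Whole embryos were sequenced in bulk, so fewer cells of a type and less RNA per cell cannot be told apart. Relative depth was estimated as the most frequent ratio of values below 1 FPKM between libraries, over all genes, and it spanned 1.79-fold between the shallowest and the deepest library; absolute depth is not known. The smallest value of a gene above 0, after scaling by relative depth, was set as 1 step. For bmp2b, bmp4, bmp7a, szl and vent the values under 10 steps lay near whole multiples of it, and no step was found for the other 5. With the smallest included, these were only 2 values for bmp2b and vent, 3 for bmp7a and szl and 6 for bmp4. Whether a step is a single fragment was not shown. Mitochondrial transcripts made up 7.29% to 10.2% of the summed FPKM in wildtype; MZnup133 had 5.10% to 6.53%, and Melys had 4.76% to 5.31%. The summed level of 4 enveloping layer markers (krt4, krt8, krt18a.1 and cldne) ranged from 2.72 to 541 FPKM in wildtype; MZnup133 spanned 0.467 to 67.7, and Melys spanned 0.462 to 137. That of 3 dorsal organizer markers (chrd, gsc and noto) ranged from 2.27 to 182 FPKM in wildtype; MZnup133 spanned 0 to 28.5, and Melys spanned 0 to 62.9. The mitochondrial share was lower in every knockout library than in any wildtype library, and both these marker sums peaked lower in the knockouts. The yolk syncytial layer markers mxtx2 and slc26a1 summed to at most 75.2 FPKM in wildtype, 19.9 in MZnup133 and 62.4 in Melys. In Melys mxtx2 was 33.3 FPKM at 4 hpf (wildtype 27.3 and 30.2) and 61.2 at 4.5 hpf (wildtype 62.4 and 52.8). By contrast, slc26a1 in Melys was below both wildtype libraries at these stages. The part of the mitochondrial share and the markers in the results on the knockouts was not tested. Germ plasm markers (ddx4, dazl, nanos3 and tdrd7a) summed to 271 to 429 FPKM in wildtype over all stages. The sums in MZnup133 (284 to 334) and Melys (284 to 382) lay inside that range, but single genes differed. At 4.5 hpf tdrd7a was 53.1 FPKM in MZnup133 and 49.4 in Melys, against 18.2 and 24.2 in wildtype. For ddx4 these were 168 and 165, against 206 and 190. Levels of nanos3 lay between the wildtype libraries in both knockouts, and dazl was above both in Melys only.

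**Figure D1:**
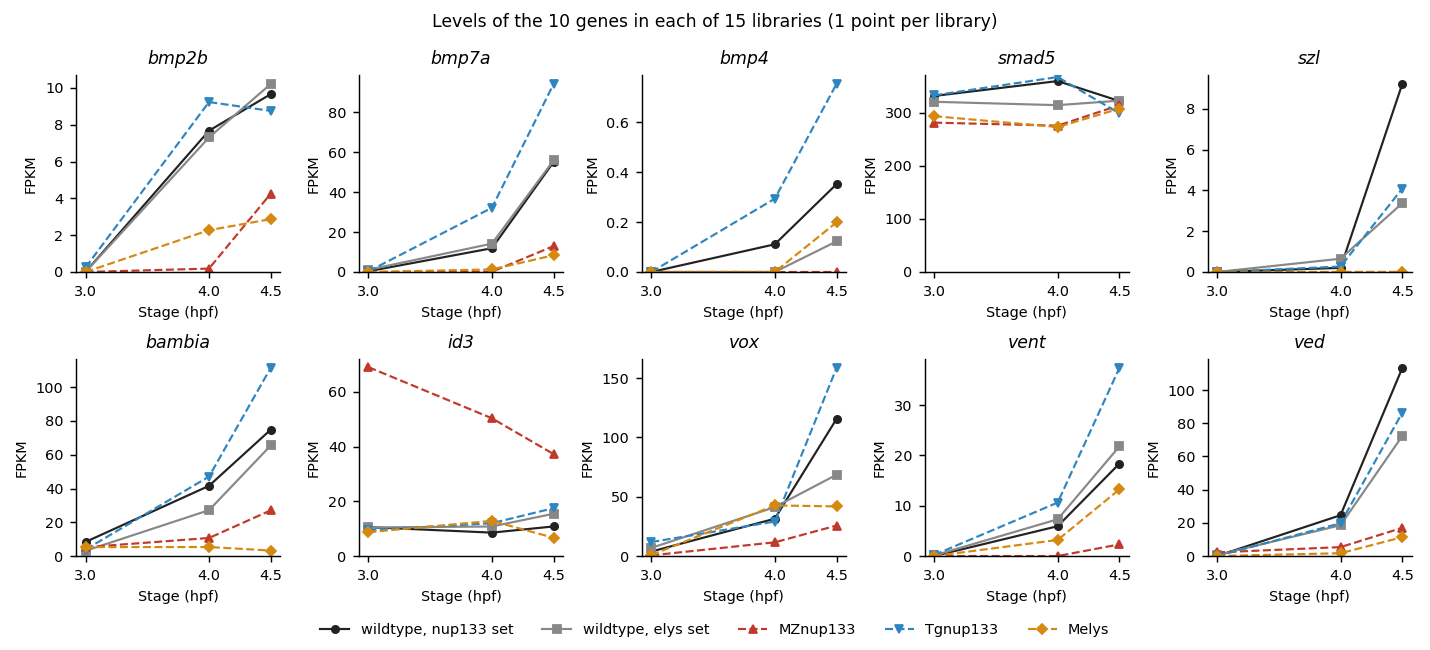
FPKM (linear axis from 0, scaled per gene) of the 10 genes against stage in hpf, with 1 point per library and lines joining the libraries of a genotype. The 2 wildtype series rise together for bmp2b, bmp7a and vent, the MZnup133 and Melys series lie below them at 4 and 4.5 hpf for bmp2b, bmp7a, bambia and ved, and id3 stands at 37.3 to 69.1 FPKM in MZnup133 alone.

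In wildtype the first question was when these genes come on. Between 3 and 4 hpf, 6 of the 9 tested genes rose (bmp2b, bmp7a, bambia, vox, vent and ved) and 0 fell, where 3.61% of the 13493 genes tested rose and 3.34% fell. Between 4 and 4.5 hpf, bmp7a and vent rose, against 1.76% of genes higher and 3.23% lower. Over the whole interval from 3 to 4.5 hpf, 7 rose and 0 fell, against 14.1% of genes higher and 22.8% lower. The median log2 difference of the 9 genes was 3.52, beside -0.16 over all genes tested. All these calls are limma tests on log2(FPKM + 1) with Benjamini-Hochberg adjustment over all genes tested and a threshold of 0.05, and bmp4 was not tested because its mean was below 1 FPKM. A gene near 0 at 3 hpf reaches that mean only through higher later levels, so the filter favours a rise. Without the filter 0 of these genes were called from 3 to 4 hpf and 0 from 4 to 4.5 hpf. Leaving out any 1 of the 6 wildtype libraries ended most calls from 3 to 4 hpf and all from 4 to 4.5 hpf. The full fit has only 2 residual degrees of freedom, from the wildtype pairs, and each library left out lowers them. A lost call therefore does not show that the estimate rests on that library. Over the 12 alternatives the lowest rises from 3 to 4 hpf were 2.09 (bambia), 2.15 (vox), 2.79 (bmp7a), 2.80 (vent), 3.04 (bmp2b) and 3.53 (ved). From 3 to 4.5 hpf all calls but that of szl were kept.

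By mean wildtype level at 4.5 hpf, smad5 stood first at 323 FPKM, followed by ved at 92.8, vox at 92.1, bambia at 70.2, bmp7a at 55.5, vent at 20.1, id3 at 13.2, bmp2b at 9.94, szl at 6.29 and bmp4 at 0.238. FPKM is scaled by transcript length, which allows this order between genes. The ranges of the 2 wildtype libraries overlapped for ved and vox and for vox and bambia, so these neighbours are not separated. At 3 hpf only smad5, id3, bambia and vox had wildtype levels above 3 FPKM in both libraries.

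Of the ligands, bmp2b was listed at 0 FPKM in both wildtype libraries at 3 hpf. It was 7.68 and 7.31 FPKM at 4 hpf and 9.67 and 10.2 FPKM at 4.5 hpf, in the nup133 and the elys set. The 3 hpf levels lie below all later ones, and the rise from 3 to 4.5 hpf was 3.45 ± 0.23 (SE) on the log2(FPKM + 1) scale, with a limma adjusted p of 0.0025. In MZnup133 bmp2b was listed at 0, 0.185 and 4.26 FPKM at 3, 4 and 4.5 hpf. In Melys it was 0, 2.27 and 2.87 FPKM. Both knockouts therefore lay below both wildtype libraries at 4 and at 4.5 hpf, and the value of 0.185 in MZnup133 is the one set as 1 step. Over 4 and 4.5 hpf the difference was -1.95 ± 0.54 in MZnup133 (limma adjusted p = 0.0394), which passed, and -1.44 ± 0.54 in Melys (limma adjusted p = 0.143), which did not. The SE is shared, since the fit pools the stage differences of MZnup133, Tgnup133 and Melys. At 4 and 4.5 hpf the single differences were -2.87 and -1.02 in MZnup133 and -1.34 and -1.53 in Melys. Tgnup133 had 0.245, 9.24 and 8.76 FPKM, close to wildtype at 4 and 4.5 hpf.

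The partner ligand gene bmp7a had 0.369 and 1.11 FPKM in wildtype at 3 hpf. It reached 11.9 and 14.2 FPKM at 4 hpf and 55.1 and 55.9 FPKM at 4.5 hpf. Its wildtype rise from 3 to 4.5 hpf was 5.06 ± 0.26 on the log2(FPKM + 1) scale (limma adjusted p = 0.00175). In MZnup133 it was listed at 0, 0.124 and 13.0 FPKM, and in Melys at 0, 1.28 and 8.38 FPKM. At 4 hpf these were 1.04% and 9.04% of the matched wildtype level, and at 4.5 hpf 23.5% and 14.99%. The fitted difference over 4 and 4.5 hpf was -2.76 ± 0.47 in MZnup133 (limma adjusted p = 0.0114) and -2.67 ± 0.47 in Melys (limma adjusted p = 0.0264). In Tgnup133 bmp7a was 0.334, 32.2 and 94.2 FPKM, above both wildtype libraries at 4 and 4.5 hpf, with a fitted difference of 1.06 ± 0.47 that did not pass (limma adjusted p = 0.342).

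The ratio of bmp7a to bmp2b FPKM in wildtype was 1.55 and 1.94 at 4 hpf and 5.70 and 5.47 at 4.5 hpf. At 4.5 hpf it was 3.05 in MZnup133, 2.92 in Melys and 10.8 in Tgnup133, each from 1 library. The third ligand gene, bmp4, was listed at 0 FPKM in 9 of 15 libraries and had its highest value, 0.755 FPKM, in Tgnup133 at 4.5 hpf. Its wildtype values at 4.5 hpf were 0.352 and 0.123 FPKM, and MZnup133 was listed at 0 at each stage. Levels of so few steps give no order between the genotypes.

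The transducer gene smad5 lay between 273 and 368 FPKM in all 15 libraries. Wildtype levels were 332 and 321 FPKM at 3 hpf, 360 and 315 FPKM at 4 hpf and 322 and 323 FPKM at 4.5 hpf. MZnup133 had 282, 276 and 314 FPKM, Melys 294, 273 and 308 FPKM, and Tgnup133 333, 368 and 299 FPKM. The knockout libraries lay below every wildtype library of their stage, by small amounts. Over 4 and 4.5 hpf the fitted differences were -0.21 ± 0.12 in MZnup133 and -0.14 ± 0.12 in Melys, and neither passed (limma adjusted p = 0.233 and 0.505). The sign of its wildtype stage differences and of its Tgnup133 difference depends on how the libraries are scaled.

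Of the inhibitor genes, szl encodes Sizzled, a secreted inhibitor of the proteases that cleave Chordin. It was listed at 0 FPKM in all 5 libraries at 3 hpf. Wildtype levels were 0.203 and 0.651 FPKM at 4 hpf and 9.21 and 3.37 FPKM at 4.5 hpf. From 4 to 4.5 hpf the rise was 2.25 ± 0.47 on the log2(FPKM + 1) scale, which did not pass (limma adjusted p = 0.0667). From 3 to 4.5 hpf it was 2.74 ± 0.47 (limma adjusted p = 0.0157), which passed. The 2 wildtype libraries at 4.5 hpf differed by 1.22 on that scale. The call was lost without the filter on low values. It was also lost without either wildtype library of 3 hpf, or without the nup133 set library of 4.5 hpf. Over the 12 alternatives the rise from 3 to 4.5 hpf ranged from 2.01 to 5.83. The mean of szl over the 15 libraries was 1.19 FPKM, just above the filter of 1 FPKM, with 9 libraries at 0. MZnup133 and Melys were listed at 0 at every stage. At 4.5 hpf the matched wildtype level was 10.05-fold above a floor of 3 steps in the MZnup133 library. For Melys it was 6.20-fold above that floor. Each fold takes 1 wildtype library as exact, so it is not a lower bound. Neither fitted difference over 4 and 4.5 hpf passed, at -1.81 ± 0.75 in MZnup133 (limma adjusted p = 0.112) and -1.43 ± 0.75 in Melys (limma adjusted p = 0.259). Tgnup133 had 4.08 FPKM at 4.5 hpf, between the wildtype libraries.

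The second inhibitor gene, bambia, encodes a membrane protein that resembles a BMP receptor without its kinase and acts as a decoy. Wildtype levels were 8.35 and 3.10 FPKM at 3 hpf, 41.6 and 27.2 FPKM at 4 hpf and 74.9 and 65.5 FPKM at 4.5 hpf, a rise of 3.52 ± 0.28 on the log2(FPKM + 1) scale (limma adjusted p = 0.00335). In Melys it was 5.30, 5.34 and 3.26 FPKM, so the lowest of the 3 values was at 4.5 hpf. In MZnup133 it was 5.22, 10.7 and 27.1 FPKM. At 4.5 hpf the Melys level was 4.97% of its matched wildtype and the MZnup133 level 36.2%. Over 4 and 4.5 hpf the difference was -3.06 ± 0.40 in Melys (limma adjusted p = 0.0113) and -1.65 ± 0.40 in MZnup133 (limma adjusted p = 0.0276). Whether these effects over 4 and 4.5 hpf differ was not tested. Over the 3 stages the MZnup133 effect minus the Melys effect was 0.54 ± 1.03, which did not pass (limma adjusted p = 0.835). That fit includes 3 hpf, where bambia was above its matched wildtype in Melys and below it in MZnup133. The knockout levels there were close, at 5.30 and 5.22 FPKM, and it was the matched wildtype levels that differed, at 3.10 and 8.35 FPKM. Tgnup133 had 3.84, 47.1 and 112 FPKM.

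The target gene id3 encodes a helix-loop-helix protein that binds and inactivates basic helix-loop-helix factors, and BMP signalling is known to induce it. Its wildtype levels were 10.6 and 10.5 FPKM at 3 hpf, 8.56 and 10.8 FPKM at 4 hpf and 10.8 and 15.5 FPKM at 4.5 hpf, and no wildtype stage difference passed. MZnup133 had 69.1, 50.4 and 37.3 FPKM, above every other library at each stage. These levels were 654%, 588% and 344% of the matched wildtype. Over the 3 stages the difference was 2.24 ± 0.32 on the log2(FPKM + 1) scale (limma adjusted p = 0.00172), and it passed in all 21 alternatives tried, with adjusted p from 9.62e-05 to 0.0157. Melys had 8.72, 12.9 and 6.67 FPKM and Tgnup133 9.48, 12.02 and 17.5 FPKM. Neither genotype passed the test for id3, and the MZnup133 effect exceeded the Melys effect by 2.61 ± 0.46 (limma adjusted p = 0.0103). It was the 1 gene of the 9 tested that passed this comparison, in which 5.27% of all genes passed. The higher id3 level in MZnup133 was already present at 3 hpf, and its cause was not tested.

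**Figure D2:**
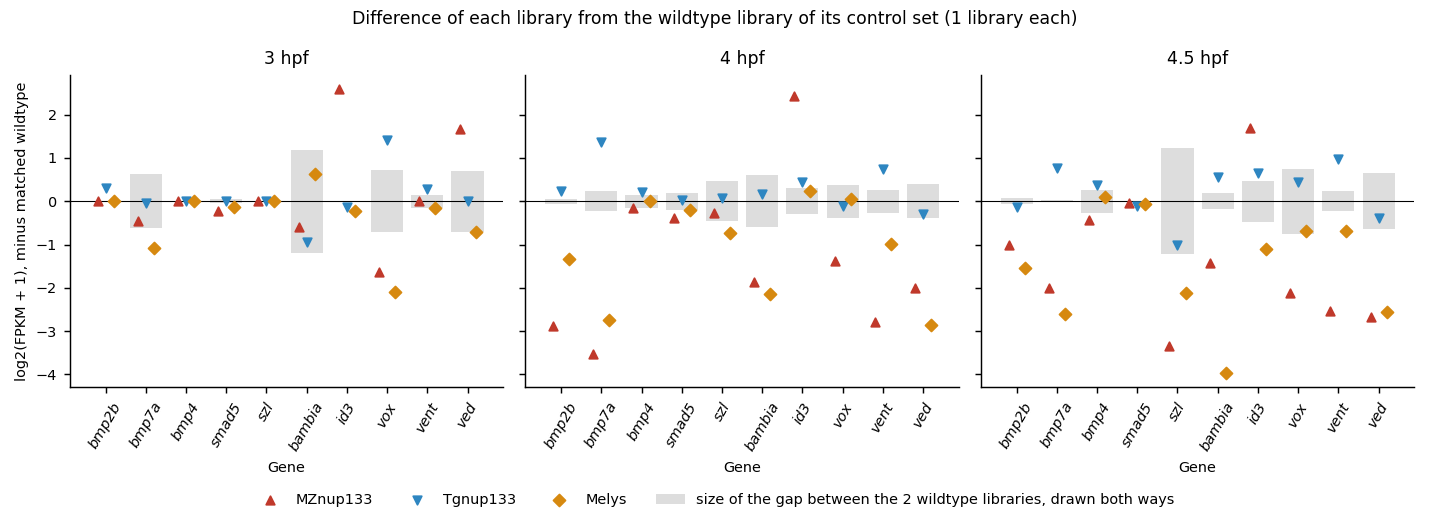
Difference in log2(FPKM + 1) between each knockout or transgenic library and the wildtype library of its control set, at 3, 4 and 4.5 hpf, with 1 library per point. Grey bars show the size of the gap between the 2 wildtype libraries; id3 in MZnup133 lies above them at each stage (2.60, 2.43 and 1.69), and bmp7a lies below them in both knockouts at 4 and 4.5 hpf.

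The repressor gene vox was at 3 hpf already above 3 FPKM in wildtype, at 3.78 and 6.83 FPKM. It was 31.5 and 41.2 FPKM at 4 hpf and 116 and 68.5 FPKM at 4.5 hpf. MZnup133 had 0.546, 11.6 and 25.7 FPKM, below both wildtype libraries at each stage. Over the 3 stages vox was lower in MZnup133, with a log2(FPKM + 1) difference of -1.71 ± 0.42 (limma adjusted p = 0.0197), and over 4 and 4.5 hpf the difference was -1.75 ± 0.33 (limma adjusted p = 0.014). The first of these calls was lost without the nup133 set wildtype library of 4 or 4.5 hpf or without MZnup133 at 4.5 hpf, with adjusted p up to 0.0953. Melys had 0.819, 42.7 and 41.8 FPKM, so it was below wildtype at 3 and 4.5 hpf and above it at 4 hpf. The Melys difference over 4 and 4.5 hpf was -0.33 ± 0.33 (limma adjusted p = 0.546). Tgnup133 had 11.8, 29.1 and 159 FPKM.

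The gene vent, which neighbours vox in the reference gene table, was listed at 0 and 0.111 FPKM in wildtype at 3 hpf. It was 5.94 and 7.31 FPKM at 4 hpf and 18.4 and 21.8 FPKM at 4.5 hpf. The wildtype libraries differed by at most 0.26 on the log2(FPKM + 1) scale at any stage. MZnup133 was listed at 0 at 3 and 4 hpf and had 2.32 FPKM at 4.5 hpf. At 4 hpf the matched wildtype was 12.7-fold above a floor of 3 steps in the MZnup133 library, with that 1 wildtype library taken as exact. At 4.5 hpf the MZnup133 level was 12.6% of its matched wildtype. The fitted difference over 4 and 4.5 hpf was -2.67 ± 0.24 (limma adjusted p = 0.00207), and it passed in all 16 alternatives tried. Melys had 0, 3.20 and 13.3 FPKM, 43.8% and 60.8% of its wildtype at 4 and 4.5 hpf, with a difference of -0.83 ± 0.24 that did not pass (limma adjusted p = 0.0796). Tgnup133 had 0.216, 10.6 and 37.4 FPKM, above both wildtype libraries at each stage, with a difference of 0.87 ± 0.24 that did not pass (limma adjusted p = 0.179).

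The third repressor gene, ved, had the largest wildtype rise of the 9 tested genes, 6.17 ± 0.39 from 3 to 4.5 hpf on the log2(FPKM + 1) scale (limma adjusted p = 0.00232). Wildtype levels were 0 and 0.624 FPKM at 3 hpf, 24.6 and 18.6 FPKM at 4 hpf and 113 and 72.3 FPKM at 4.5 hpf. MZnup133 had 2.199, 5.38 and 17.0 FPKM, so at 3 hpf it was above both wildtype libraries and later below both. Melys had 0, 1.70 and 11.4 FPKM. At 4.5 hpf these were 14.999% and 15.7% of the matched wildtype. Over 4 and 4.5 hpf the difference was -2.34 ± 0.22 in MZnup133 (limma adjusted p = 0.00232) and -2.71 ± 0.22 in Melys (limma adjusted p = 0.00299). Tgnup133 had 0, 19.8 and 86.4 FPKM.

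**Figure D3:**
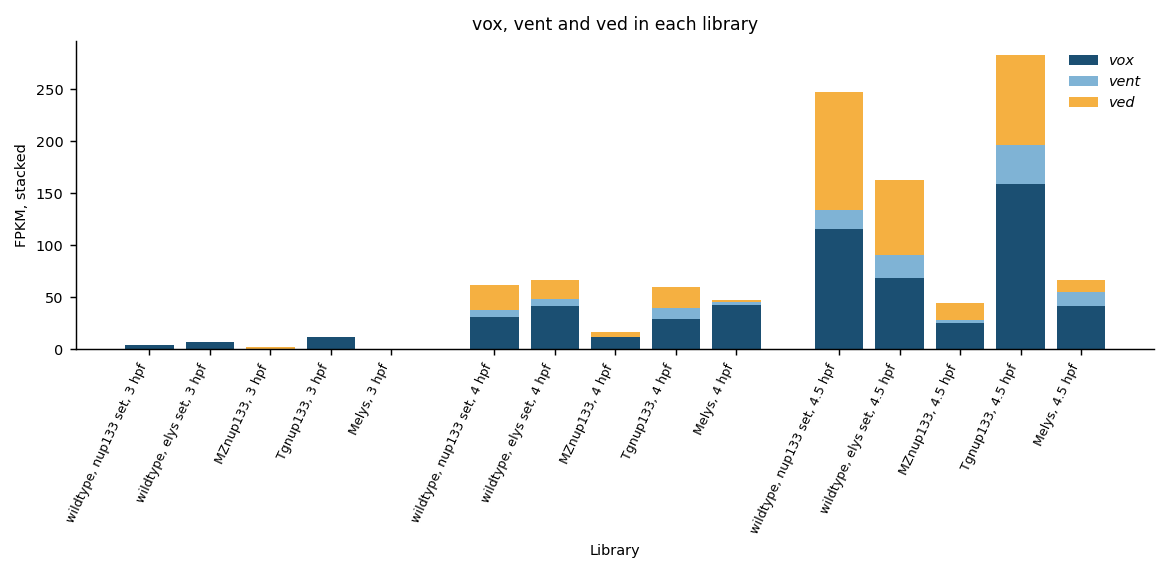
FPKM of vox, vent and ved stacked for each of the 15 libraries, ordered by stage (linear axis from 0). At 4.5 hpf the sum is 247 and 163 FPKM in wildtype, 282 in Tgnup133, 45.0 in MZnup133 and 66.5 in Melys, and the Melys bars hold a smaller ved segment than the wildtype bars.

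The 3 repressor genes were also read as a sum, which was 62.0 and 67.1 FPKM in wildtype at 4 hpf and 247 and 163 FPKM at 4.5 hpf. In MZnup133 the sum was 27.3% and 18.2% of the matched wildtype at 4 and 4.5 hpf, and in Melys 70.9% and 40.9%. The makeup of the sum differed between the knockouts. At 4 hpf vox made up 89.7% of it in Melys and ved 3.57%, where wildtype had 50.8% and 61.5% vox and 39.7% and 27.7% ved. MZnup133 had 68.3% vox and 31.7% ved. Each share is from 1 library, and the difference in makeup was not tested.

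Read by genotype, MZnup133 had 1 gene higher (id3) and 6 lower (bmp2b, bmp7a, bambia, vox, vent and ved) of the 9 tested over 4 and 4.5 hpf, where 18.6% of all genes were higher and 11.2% lower. The median log2 difference of the 9 was -1.81, beside 0.22 over all genes. Melys had 3 lower (bmp7a, bambia and ved) and 0 higher, where 4.77% of genes were higher and 4.55% lower, and its median was -1.43 beside 0.11. Tgnup133 had 0 called by limma, where 0.667% of genes were called in either direction. At an unadjusted limma p under 0.05 it had 1 (vent), against 2157 of the 13493 genes tested. Without the nup133 set wildtype library of 4 hpf or that of 4.5 hpf, 2 calls were made in MZnup133 in place of 7. Over the 16 alternatives tried, vent and ved kept their MZnup133 calls in each, while bmp7a lost its call in 3, id3 in 4, vox in 4, bambia in 8 and bmp2b in 10. In Melys bambia lost its call in 3, ved in 4 and bmp7a in 9. Without the Melys or the elys set wildtype library of 4 hpf 1 call was made in Melys, and without either of 4.5 hpf 0 were made.

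Over all 3 stages, where the 3 hpf libraries with levels near 0 enter, MZnup133 had 1 gene higher (id3) and 1 lower (vox), against 13.7% of genes higher and 8.32% lower. Melys had 0 called by limma, against 10.1% of genes called. At an unadjusted limma p under 0.05 it had 3 (bmp7a, bambia and ved), against 3638 of the 13493 genes tested. Tgnup133 had 0 called, against 1.95%, and 0 at an unadjusted limma p under 0.05, against 1998 of all genes tested. Without MZnup133 at 3 hpf the MZnup133 count was 6 and the Melys count 2, without Tgnup133 at 3 hpf the MZnup133 count was 4, and without the nup133 set wildtype library of 4 or 4.5 hpf it was 1. The Melys count was 1 without either elys set library of 3 hpf or without MZnup133 at 4 hpf.

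**Figure D4:**
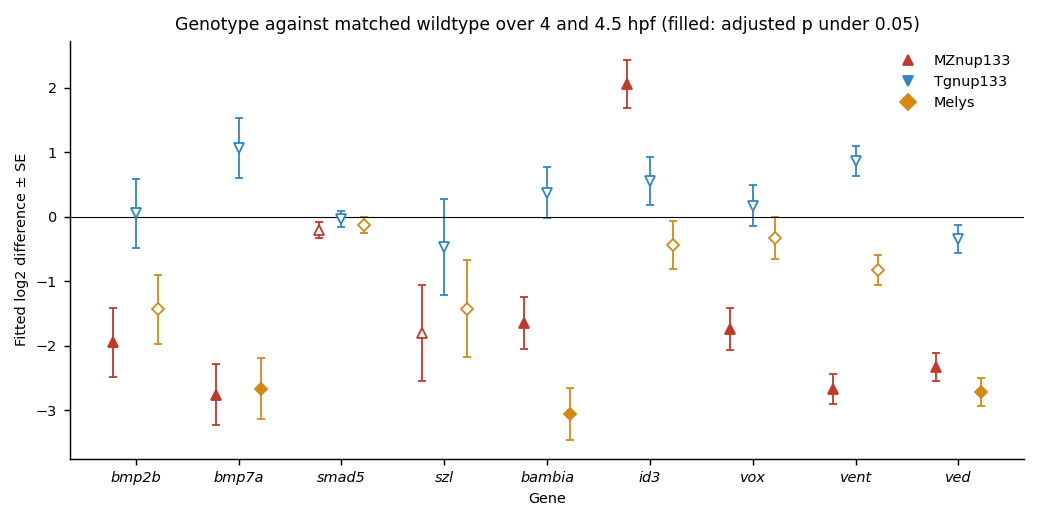
Fitted log2 difference from matched wildtype over 4 and 4.5 hpf with its standard error, for the 9 tested genes in MZnup133, Tgnup133 and Melys; filled symbols passed an adjusted p of 0.05. The MZnup133 points are filled for 7 genes, with id3 the one above 0, the Melys points for 3, and the Tgnup133 points for 0.

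Other BMP pathway genes were read from a list by role, of which 47 were in the table and 31 had a mean of at least 1 FPKM. From 3 to 4.5 hpf in wildtype 10 of the 31 rose and 10 fell, where 14.1% of all genes tested rose and 22.8% fell. By size of change the leading ones were gata3 (5.48 ± 0.25), id1 (5.27 ± 0.17), tfap2a (5.23 ± 0.27), chrd (4.91 ± 0.29), gata2a (3.64 ± 0.36), smad7 (3.38 ± 0.34), foxi1 (2.90 ± 0.22) and nog1 (2.54 ± 0.36), all as log2 differences. Of the 9 tested receptor genes 3 fell and 1 rose. Those that fell were bmpr1ab, bmpr1ba and acvr2aa, with log2 differences of -1.61, -1.88 and -2.06. The receptor gene that rose was acvr1l, by 0.50 ± 0.07 (limma adjusted p = 0.0107). The genes of the ubiquitin ligases smurf1 and smurf2 also fell, with -1.54 and -0.76. Without the nup133 or the elys set wildtype library of 3 hpf, 9 or 11 of the pathway genes passed, and without the nup133 set library of 4.5 hpf 8 passed.

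In MZnup133 over 4 and 4.5 hpf, 7 of the 31 were lower and 2 higher, where 11.2% of all genes tested were lower and 18.6% higher. Of the 3 tested antagonist and modulator genes, chrd (Chordin) and nog1 (Noggin) were lower, with log2 differences of -2.06 ± 0.37 and -2.44 ± 0.43. The remaining gene, twsg1a, had a positive difference of 0.74 ± 0.26 that did not pass (limma adjusted p = 0.076). Of the 9 tested target and epidermal genes, tfap2c, gata3, tfap2a, gata2a and id1 were lower, with differences of -2.205, -1.80, -1.65, -1.52 and -1.50. The other 4 had positive differences that did not pass, at 0.80 for tp63, 0.53 for id2a, 0.31 for msx1b and 0.11 for foxi1. The receptor gene acvr2aa and the ligase gene smurf1, both of which fell in wildtype over time, were higher by 1.43 ± 0.23 and 1.28 ± 0.19. No gene of the ligand and processing group passed. Over 4 and 4.5 hpf the related gene id1 thus had the opposite sign to id3 in MZnup133. Its levels were 57.5 FPKM at 4 hpf and 246 FPKM at 4.5 hpf, where the matched wildtype had 286 and 399 FPKM. At 3 hpf id1 was 30.2 FPKM in MZnup133, above the wildtype levels of 11.8 and 7.42 FPKM. It was above both in Tgnup133 (23.6 FPKM) and Melys (19.4 FPKM) as well, whereas id3 was above both in MZnup133 alone. Over the 3 stages the id1 difference in MZnup133 was -0.57 ± 0.60, which did not pass (limma adjusted p = 0.501).

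In Melys over the same stages tfap2c was lower, with a log2 difference of -2.17 ± 0.37. The activin type II receptor gene acvr2bb was higher, with 0.71 ± 0.16. Of all genes tested, 4.55% were lower and 4.77% higher. An unadjusted limma p under 0.05 was reached by 13 of the 31, against 3870 of the 13493 genes tested. The 9 tested target and epidermal genes held 8 of these 13, and the 8 went both ways. Differences were negative for tfap2c (-2.17), tfap2a (-1.91), gata3 (-1.10) and gata2a (-0.97). They were positive for foxi1 (1.75), tp63 (0.90), msx1b (0.80) and id2a (0.66). Of all 9 differences 5 were negative, and the median of -0.82 was that of id1, which was not among the 8. In Tgnup133 0 of 31 were called by limma. There 4 had an unadjusted limma p under 0.05, against 2157 of all genes tested. The median log2 difference of the 31 genes was -0.03 in MZnup133 and -0.003 in Melys, beside 0.22 and 0.11 over all genes. Without the nup133 set wildtype library of 4.5 hpf the MZnup133 count was 0, and without that of 4 hpf it was 2. The Melys count ranged from 0 to 7 when 1 library was left out, with the 7 reached without MZnup133 at 4 or at 4.5 hpf.

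**Figure D5:**
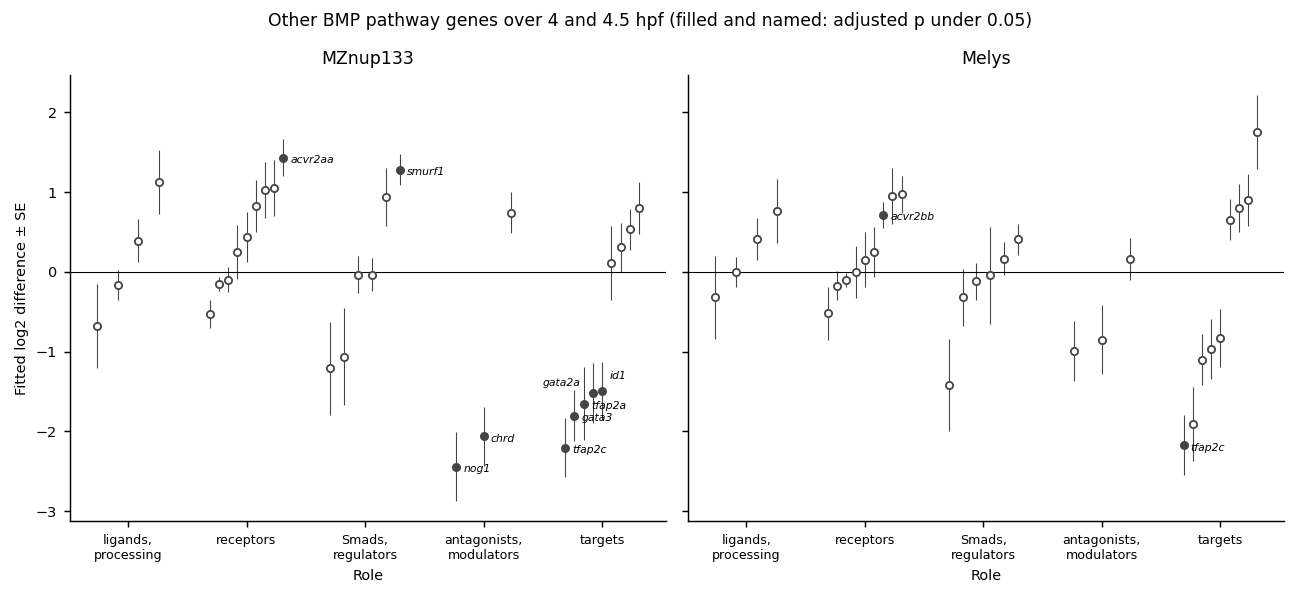
Fitted log2 difference from matched wildtype over 4 and 4.5 hpf with its standard error, for the 31 tested genes of the pathway list grouped by role, in MZnup133 (left) and Melys (right). Filled and named points passed an adjusted p of 0.05, 9 in MZnup133 and 2 in Melys.

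Across the 15 libraries, which share stages and genotypes, the pattern of log2(FPKM + 1) of bmp7a was close to those of bmp2b (Pearson r = 0.95), vent (0.95) and ved (0.94), and id3 had r between -0.51 and 0.04 with the other 8 tested genes. These are descriptions over 15 libraries. Among all tested genes, foxa3 (r = 0.98) and mxtx1 (0.98) were among the 3 with the pattern most like that of vent. For vox these were wnt11f2 (0.97), mxtx2 (0.96) and dkk1b (0.95), and for ved asb11 (0.97), dynll1 (0.97) and rgs4 (0.97). For bmp2b the leading genes were znf1042 and fgfr4 (both 0.99), for bmp7a CR388132.2, mapk12b and srsf5a (all 0.99), for szl duox2, znf1146 and add3b (all 0.98), and for bambia si:dkey-56m15.3, pkdccb and cant1b (all 0.95). The closest pattern to smad5 was that of pdia3 (0.87) and to id3 that of si:dkey-110g7.8 (0.96).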

How the data were processed

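The authors deposited FPKM per gene and library, made with Trim Galore, STAR 2.5.3a, Cufflinks 2.2.1 and GRCz11 per the submitters' processing notes; their order and options are not stated there. Of 23800 lines, 74 repeats were dropped. Wildtype columns were assigned to a control set by the leading number they share with the mutant columns. Tests used limma 3.58.1 in R 4.3.3 on log2(FPKM + 1) for the 13493 genes whose mean over the libraries reached 1 FPKM, with a variance trend, Benjamini-Hochberg adjustment and an adjusted p of 0.05, two-sided. Wildtype stage differences came from genotype-by-stage means with a control set term (2 residual degrees of freedom). Genotype effects came from a level per control set and stage (6 residual degrees of freedom over 3 stages, 3 over 4 and 4.5 hpf). The stage differences of the MZnup133, Tgnup133 and Melys effects enter 1 spread per gene, which these genotypes share. A genotype can therefore miss the threshold through the stage differences of another. The script was tested on simulated data. FPKM values under 10 steps were whole, within 0.15 of a step, for bmp2b, bmp4, bmp7a, szl and vent, and only these have floors. Larger values were not checked for whole steps. Of the pathway list, 4 symbols without a row and 2 with 2 rows were not analysed here. The genes and lists were chosen with earlier results of these data known. Named pathway genes are those called, or the 8 with the largest difference where more were called. The receptor and ligase genes that fell or rose in wildtype were named after their values were seen. So were the uncalled antagonist and target genes named for the knockouts. Alternatives were another pseudocount, no filter, 2 scalings, no control set term, no variance trend and each library left out. For each gene tested, the leading genes by Pearson correlation were taken from the 3 highest, and not all of these are reported here.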

Additional observations from a re-analysis of the deposited data

Results flagged for a closer look

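The id3 effect differed between the 2 knockouts. The MZnup133 effect minus the Melys effect over the 3 stages was 2.61 ± 0.46 on the log2(FPKM + 1) scale (limma adjusted p = 0.0103), with id3 above its matched wildtype in 3 of 3 MZnup133 libraries and in 1 of 3 Melys libraries. The difference passed in all 21 alternatives tried, with adjusted p from 0.0002 to 0.0438.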

How the results depend on the processing

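No paired analysis was possible because the labels number no replicates and each mutant or transgenic group has 1 library per stage. The genotype effects were already taken against the wildtype library of the same stage and control set, matched by leading number, and the setting with no control set term drops the match by control set. Across 6 other settings, 488 of 540 single-gene results kept their direction and side of the threshold, 28 lost a call, 12 gained one and 12 changed sign. With 1 library left out these were 825, 84, 16 and 47 of 972. The cause of the changes was not tested, and absolute depth is unknown, so levels of a few steps (bmp4, and szl at 4 hpf) are at the limit of these data.

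Without the filter on low values, the count of the 10 genes called fell to 0 (from 6) for wildtype 3 to 4 hpf, 0 (from 2) for 4 to 4.5 hpf, 2 (from 7) for MZnup133 over 4 and 4.5 hpf and 1 (from 3) for Melys over 4 and 4.5 hpf; the pathway counts fell to 13 (from 20) for wildtype 3 to 4.5 hpf, 3 (from 9) for MZnup133 and 0 (from 2) for Melys. A pseudocount of 0.1 gave 0 genes for wildtype 4 to 4.5 hpf, 1 (from 0) for Melys over 3 stages and 0 pathway genes for Melys. No variance trend gave 0 genes for wildtype 4 to 4.5 hpf and 1 pathway gene for Melys. No control set term gave 1 gene for wildtype 4 to 4.5 hpf, 5 (from 2) for MZnup133 over 3 stages, 3 (from 0) for Melys over 3 stages, 5 (from 3) for Melys over 4 and 4.5 hpf, 1 pathway gene (from 0) for Tgnup133 and 9 (from 2) for Melys.

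Sign changes concerned uncalled values. For smad5 they were 0.044 to -0.004 for wildtype 3 to 4 hpf with libraries rescaled to the same sum, and with median-ratio scaling -0.06 to 0.161 for 4 to 4.5 hpf, -0.016 to 0.27 for 3 to 4.5 hpf, -0.024 to 0.048 for Tgnup133 over 3 stages and -0.039 to 0.07 for Tgnup133 over 4 and 4.5 hpf; no control set term gave 0.016 and 0.009 in the last 2. For bambia in Tgnup133 over 3 stages, -0.068 became 0.007 with median-ratio scaling and 0.261 with no control set term. In the MZnup133 effect minus the Melys effect, bmp7a went from 0.144 to -0.12 with a pseudocount of 0.1 and to -0.149 with no control set term, which also took szl from -0.256 to 0.0, a positive value below rounding.

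With 1 library left out, the genes called ranged from 0 to 1 for wildtype 3 to 4 hpf, 0 to 0 for 4 to 4.5 hpf, 1 to 6 for MZnup133 over 3 stages, 0 to 2 for Melys over 3 stages, 1 to 2 for the difference of these effects, 2 to 6 for MZnup133 over 4 and 4.5 hpf and 0 to 4 for Melys over 4 and 4.5 hpf. Pathway counts ranged from 8 to 17 for wildtype 3 to 4.5 hpf, 0 to 9 for MZnup133 and 0 to 7 for Melys. Uncalled log2 differences that changed sign ranged, in wildtype 3 to 4 hpf, from -0.042 to 0.13 (smad5), -0.039 to 1.029 (szl) and -0.319 to 0.087 (id3), and for smad5 from -0.146 to 0.026 from 4 to 4.5 hpf and -0.079 to 0.046 from 3 to 4.5 hpf. In Tgnup133 over 3 stages they ranged from -0.3 to 0.511 (bmp2b), -0.02 to 1.447 (bmp7a), -0.093 to 0.063 (smad5), -0.689 to 0.401 (szl), -0.422 to 0.549 (bambia) and -0.957 to 0.324 (ved), and over 4 and 4.5 hpf from -0.592 to 0.701 (bmp2b), -0.195 to 0.117 (smad5), -1.507 to 0.577 (szl) and -0.299 to 0.643 (vox). In Melys over 4 and 4.5 hpf they ranged from -1.103 to 0.232 (id3) and -0.699 to 0.048 (vox). In the difference of the MZnup133 and Melys effects they ranged from -0.943 to 0.474 (bmp2b), -0.809 to 1.075 (bmp7a), -0.198 to 0.01 (smad5), -0.845 to 0.643 (szl), -0.529 to 1.764 (bambia) and -0.236 to 1.839 (ved).

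Median-ratio scaling moved the median log2 difference of all genes by 0.18 and 0.23 for wildtype 4 to 4.5 and 3 to 4.5 hpf, by -0.16 and -0.22 for MZnup133 over 3 stages and over 4 and 4.5 hpf, and by -0.13 for Melys over 4 and 4.5 hpf. The share of called genes that were higher moved with it, from 35.3% to 60.3%, from 38.3% to 56.3%, from 62.2% to 45.9%, from 62.4% to 41.6% and from 51.2% to 35.1% in the same order, and from 54.1% to 42.8% for Melys over 3 stages. Of all genes tested, no filter called 80 (937 in the main analysis) for wildtype 3 to 4 hpf, 0 (674) for 4 to 4.5 hpf, 2723 (4986) for 3 to 4.5 hpf, 2210 (4020) for MZnup133, 1 (90) for Tgnup133 and 396 (1257) for Melys over 4 and 4.5 hpf. A pseudocount of 0.1 and no variance trend each called 0 for wildtype 4 to 4.5 hpf, and 55 and 25 for Tgnup133 over 4 and 4.5 hpf, where median-ratio scaling called 185; no variance trend called 797 for Melys. No control set term called 353 for wildtype 4 to 4.5 hpf, 606 (263) for Tgnup133 and 2562 (1368) for Melys over 3 stages, 1923 (711) for the difference of effects, 363 for Tgnup133 and 2657 for Melys over 4 and 4.5 hpf.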
